A study of Mus musculus with 18 samples.

Results

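Type I interferon-stimulated genes are the antiviral genes that cells switch on after interferon alpha or beta reaches their surface receptor. The 39 genes described here were taken by gene name from a list of known members, and all 39 were found among the 15194 genes of the joined tables. Of these, 25 had values in all 6 groups, 10 in 5 groups, 3 in 4 groups and 1 (Ifi35) in 2 groups. The list holds transcription factors of the pathway (Stat2, Irf9, Irf7), the RNA-binding IFIT family, the Mx GTPases and the ISG15 conjugation system. It also holds TRIM ubiquitin ligases, ADP-ribosyltransferases, RNA and nucleotide enzymes, and proteins of membranes, nuclear bodies and other sites.

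The RNA came from cultured 3T3-L1 cells, mouse fibroblasts that can be turned into adipocytes. Cells labelled MLKL-/- or RIPK3-/- and control cells (CTL) were taken after differentiation (J7) or undifferentiated and untreated (J0), with 3 libraries in each of the groups J7_MLKL, J7_RIPK3, J7_CTL, J0_MLKL, J0_RIPK3 and J0_CTL. MLKL is the pseudokinase that executes necroptosis, an inflammatory form of cell death, and its activating kinase is RIPK3. How the knockouts were made, whether each is 1 clone and whether libraries come from separate cultures is not given in the sources used here, so a p-value reflects the spread among these libraries and that spread may be technical. Group names follow the sample titles, and MLKL-/- cells or RIPK3-/- cells further on likewise mean the libraries so titled. In the 6 differentiated knockout samples the genotype label names the other knockout, so "the libraries titled J7_MLKL" and "the libraries titled J7_RIPK3" are meant wherever those names stand. If the genotype label is the right one, each comparison of J7 with J0 in a knockout line, and each difference of such changes, sets 2 different knockout lines against each other.

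In the classical pathway, type I interferon binds the receptor made of IFNAR1 and IFNAR2, whose kinases JAK1 and TYK2 phosphorylate STAT2. STAT2 and IRF9 belong to the complex ISGF3, which binds a DNA element rich in paired GAAA repeats before the start of its target genes. Many of the targets are themselves sensors or regulators, so that IRF7, STAT2 and IRF9 amplify the response and USP18 limits it. Uninfected fibroblasts hold low levels of many of these transcripts.

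The DNA element is printed here because it is a feature that the choice of genes by name did not use and that 11 of the genes share. RefSeq promoter windows of build GRCm38.p6 (mm10), 300 bases long from 250 before to 50 after an annotated start, matched 32 of the 39 genes by symbol. Usp18, Rtp4, Parp9, Parp14, Ifi27, Mx2 and Mx1 were not matched. The motif searched was GAAA, any 2 bases (NN) and GAAA again on the window's strand, or TTTC, NN and TTTC for the opposite strand, with overlapping matches counted. It was present in 11 of 32 matched genes (34.4%), namely Isg15, Trim21, Trim30a, Ddx60, Bst2, Stat2, Rsad2, Eif2ak2, Ifit3, Ifit3b and Ifit1. Among all 27025 genes of the table, 3.99% held it in a window, and among all 32851 windows 3.44% did. A match is a run of letters and does not show that a factor binds there. The 250 bases before the window's annotated start are given for 6 of these genes, 5′ to 3′ on the gene's strand, with matches in capitals.
Ifit1: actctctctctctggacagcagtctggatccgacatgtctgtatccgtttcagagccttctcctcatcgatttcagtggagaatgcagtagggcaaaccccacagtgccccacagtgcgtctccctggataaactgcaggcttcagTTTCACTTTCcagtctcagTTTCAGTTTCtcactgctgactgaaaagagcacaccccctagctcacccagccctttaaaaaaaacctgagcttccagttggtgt
Ifit3: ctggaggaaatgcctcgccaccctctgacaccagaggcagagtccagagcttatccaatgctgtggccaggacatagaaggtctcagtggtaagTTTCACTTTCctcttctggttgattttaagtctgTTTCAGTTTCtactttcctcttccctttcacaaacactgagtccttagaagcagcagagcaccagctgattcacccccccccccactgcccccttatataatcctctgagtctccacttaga
Ifit3b: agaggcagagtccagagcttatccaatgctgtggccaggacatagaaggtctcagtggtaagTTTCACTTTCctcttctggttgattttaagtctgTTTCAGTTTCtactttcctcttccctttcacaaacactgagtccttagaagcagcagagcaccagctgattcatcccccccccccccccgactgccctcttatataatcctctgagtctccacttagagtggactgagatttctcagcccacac
Isg15: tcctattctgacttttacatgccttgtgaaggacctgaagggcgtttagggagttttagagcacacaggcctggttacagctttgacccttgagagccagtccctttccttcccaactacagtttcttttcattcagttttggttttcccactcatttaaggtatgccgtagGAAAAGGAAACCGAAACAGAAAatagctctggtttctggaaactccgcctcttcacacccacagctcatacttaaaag
Bst2: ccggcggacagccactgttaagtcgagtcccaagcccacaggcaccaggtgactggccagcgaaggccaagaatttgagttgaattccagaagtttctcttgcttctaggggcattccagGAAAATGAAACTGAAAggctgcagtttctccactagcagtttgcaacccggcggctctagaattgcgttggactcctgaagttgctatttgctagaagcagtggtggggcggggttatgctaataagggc
Stat2: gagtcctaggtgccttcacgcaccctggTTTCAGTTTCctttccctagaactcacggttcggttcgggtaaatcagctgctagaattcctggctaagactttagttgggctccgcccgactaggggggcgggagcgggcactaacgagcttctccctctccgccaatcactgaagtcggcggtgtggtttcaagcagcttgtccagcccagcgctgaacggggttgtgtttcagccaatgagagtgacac
These bases lie at chr19:34640639-34640888 (plus strand) for Ifit1, chr19:34583279-34583528 (plus) for Ifit3 and chr19:34607707-34607956 (plus) for Ifit3b. They lie at chr4:156200819-156201068 (minus) for Isg15, chr8:71537473-71537722 (minus) for Bst2 and chr10:128270248-128270497 (plus) for Stat2. The RefSeq gene spans of Ifit3 and Ifit3b begin earlier, at 34583119 and 34607530, so their printed stretches lie within these spans. The Isg15 window holds 3 overlapping matches in tandem, whose first bases lie 78, 72 and 66 bases before the start. Of the 4 IFIT genes, Ifit2 holds no match and the other 3 hold 2 each on the opposite strand, 34 bases apart in both Ifit3 and Ifit3b and 19 apart in Ifit1. The printed stretches of Ifit3 and Ifit3b were 99.1% identical over 218 aligned bases. Ifit3 and Ifit3b are close copies of each other, so the division of reads between them is uncertain and their values are best read together.

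Several members are neighbours in the genome (mm10 coordinates of the deposited tables). Ifit2 (chromosome 19, 34550694 to 34576419), Ifit3, Ifit3b and Ifit1 (chromosome 19, 34640871 to 34650009) follow each other on the plus strand. Parp14 (chromosome 16, 35832874 to 35871544), Dtx3l (chromosome 16, 35926511 to 35939151) and Parp9 (chromosome 16, 35938470 to 35972605) lie side by side, and Mx1 and Mx2 are on the same chromosome. Rsad2 (chromosome 12, 26442746 to 26456452, minus strand) and Cmpk2 (chromosome 12, 26469204 to 26479837, plus strand) point away from each other. In RefSeq, the gene spans of 11 members overlap another protein-coding gene, among them Parp9 with Dtx3l, and 18 overlap a gene of any kind. Whether strand was used in counting is not given in the sources used here, so reads of such overlaps cannot be told apart.

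Libraries held 20.2 to 36.9 M reads. The deposited tables list genes that passed the authors' own test in a comparison, and these genes covered 90 to 98.4% of reads in CTL and RIPK3 libraries. They covered 53.5 to 54.5% in J7_MLKL and 29.3 to 30.4% in J0_MLKL libraries, so that MLKL comparisons rest on a smaller and more selected set of genes. Library 3 of J7_MLKL and library 2 of J0_MLKL stood apart from the other libraries of their groups, with chi-square over degrees of freedom of 191 to 200 and 44.2 to 50.3 against 2.65 to 5.58 for all other pairs within groups. Mlkl and Ripk3 were still read in every group, and against CTL at the same stage both transcripts fell in J7_MLKL (log2 fold changes -0.70 and -0.88), J0_MLKL (-1.20 and -1.25) and J0_RIPK3 (-0.25 and -0.22). In J7_RIPK3 the Ripk3 value was -0.73 and that of Mlkl 0.16 (edgeR adjusted p 2.44e-07 and 0.0502). Of cell type markers, the 8 adipocyte genes summed to 706 to 1284 FPKM in J7_MLKL, 4765 to 5223 in J7_RIPK3 and 4535 to 4773 in J7_CTL, and to 42.9 to 58.5 across the J0 libraries. Fibroblast markers were read in every group. Of 4 endothelial markers, 1 or 2 had counts in a group, with sums up to 1.16 FPKM, and 0 of 3 B or T cell markers had a listed count.

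Levels are FPKM, the authors' reads per gene length and library total, and are comparable between genes. Fold changes and tests were made on raw counts with edgeR's quasi-likelihood test over all listed genes, and a gene is called higher or lower at a Benjamini-Hochberg adjusted p under 0.05. Log2 fold changes are given with their standard error (SE). The members were on average most abundant in J7_MLKL and J0_CTL and least abundant in J7_RIPK3 and J7_CTL. Over the 25 members with values in all libraries, the median FPKM per library was 7.36 to 8.30 in J7_MLKL, 1.20 to 1.31 in J7_RIPK3 and 1.38 to 1.77 in J7_CTL. At J0 it was 3.36 to 4.03 in J0_MLKL, 3.54 to 3.95 in J0_RIPK3 and 6.26 to 7.22 in J0_CTL. The 3 libraries of J7_MLKL lay above the 3 of J7_CTL without overlap in 31 of 34 members, against 47.8% of all 7790 genes with values in both groups. They lay above all 3 J0_CTL libraries in 10 of 34 members and below all of them in 8, where 29.9% of all 7228 genes lay above and 27% below. In bulk RNA, fewer cells that carry a transcript and less of it per cell cannot be told apart.

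**Figure D1:**
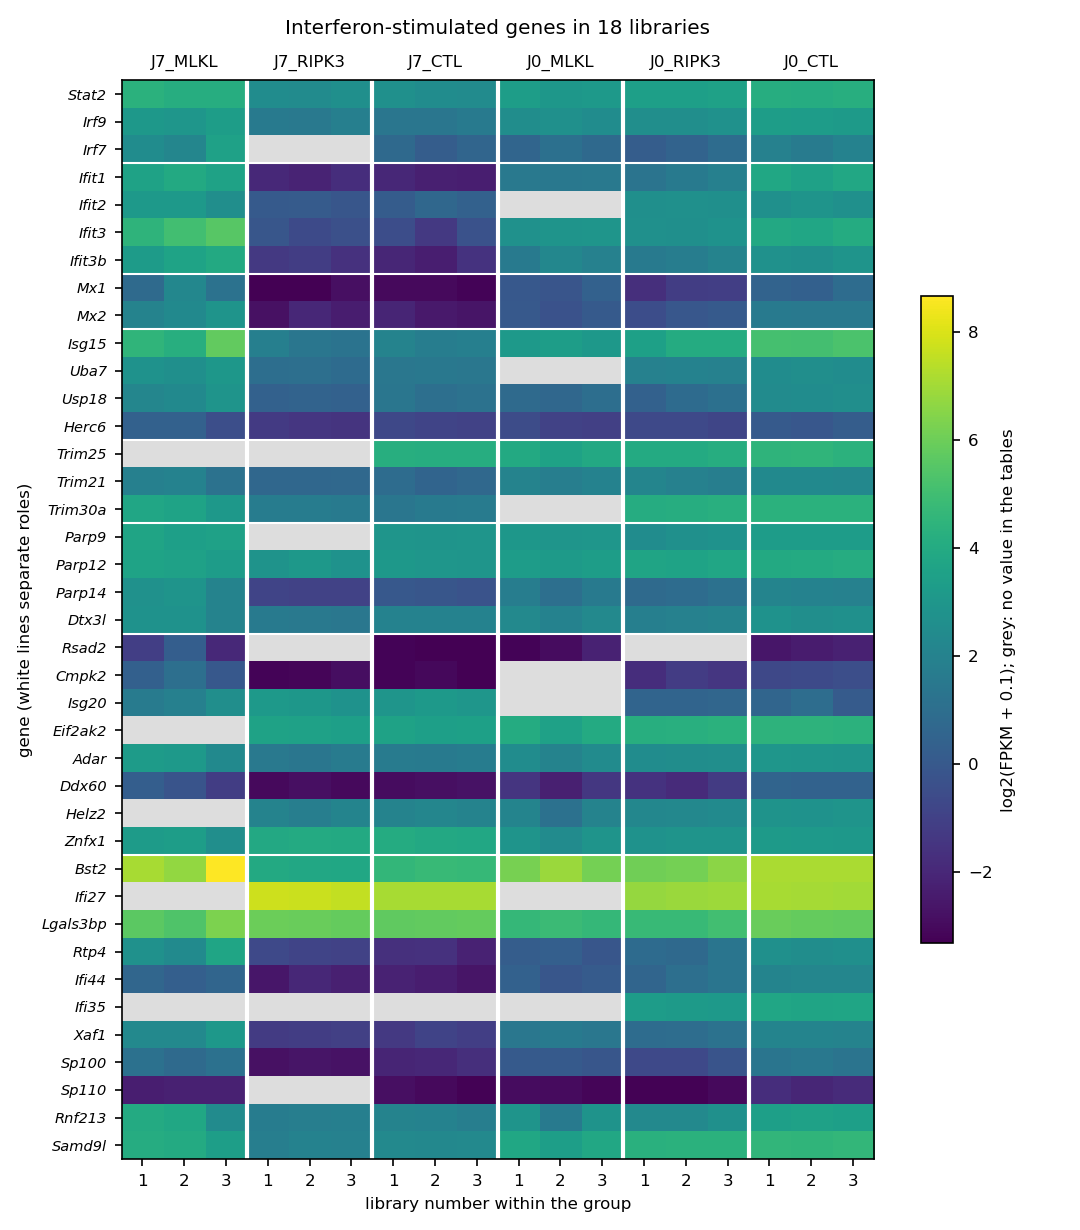
Levels of the 39 interferon-stimulated genes in 18 libraries, as log2(FPKM + 0.1), with genes grouped by role and grey where the tables give no value. J7_MLKL and J0_CTL columns are brightest for most genes, and J7_RIPK3 and J7_CTL columns are darkest for the IFIT and Mx genes.

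In the libraries titled J7_MLKL, most interferon-stimulated genes tested were higher than in those titled J0_MLKL. Of 29 members tested in J7_MLKL against J0_MLKL, 20 were higher, 0 were lower (0 also at an unadjusted p under 0.05 and by DESeq2) and 9 were not called. Among all 3075 genes tested, 35.8% were called higher, 30.9% lower and 66.7% in either direction. The median log2 fold change was 1.11 over the members and 0.03 over all genes. Of the 26 members that entered the data through a table other than that of this comparison, 17 were higher and 0 lower. To enter, these members had to differ between J0_MLKL and J0_CTL and between J7_MLKL and J7_CTL. They were therefore also selected on the libraries compared here.

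All 3 transcription factors rose. Stat2, a subunit of ISGF3, had 19.99, 17.6 and 17.6 FPKM in J7_MLKL, against 10.2, 8.16 and 8.81 in J0_MLKL. Irf9, the DNA-binding subunit of ISGF3, had 8.30, 7.85 and 10.04 FPKM in J7_MLKL and 5.81, 6.42 and 5.59 in J0_MLKL. Irf7, which drives the amplification of interferon genes, had 5.53, 4.49 and 11.6 FPKM in J7_MLKL and 1.40, 2.08 and 1.64 in J0_MLKL. In each of them every J7_MLKL library stood above every J0_MLKL library, and library 3 of J7_MLKL was the highest for Irf9 and Irf7. The log2 fold changes were 0.99 ± 0.12 for Stat2, 0.53 ± 0.13 for Irf9 and 2.05 ± 0.39 for Irf7 (SE, edgeR adjusted p 0.00087, 0.011 and 0.00418). The Irf9 call was lost without J0_MLKL library 1 (0.49, adjusted p 0.0511).

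All 3 IFIT genes tested and both Mx genes rose. Ifit1, which binds foreign RNA and blocks its translation, had 11.96, 15.5 and 11.8 FPKM in J7_MLKL and 2.76, 2.73 and 2.82 in J0_MLKL, a log2 fold change of 2.21 ± 0.15 (edgeR adjusted p 0.000144). Its J0_MLKL libraries were almost equal and far below the lowest J7_MLKL library. Mx1, a dynamin-like GTPase that restricts viruses, had 1.66, 4.55 and 2.20 FPKM in J7_MLKL and 0.899, 0.792 and 1.24 in J0_MLKL. The groups did not overlap but library 2 of J7_MLKL was above the rest, and the Mx1 change of 1.48 (adjusted p 0.017) was no longer called without J0_MLKL library 1 or 2 (adjusted p 0.0588 and 0.0597). Mx2, its paralogue, which the tables class as a polymorphic pseudogene, had 3.98, 5.03 and 7.35 FPKM in J7_MLKL and 0.907, 0.702 and 0.962 in J0_MLKL and was among the 3 members that rose most (2.64, adjusted p 0.000588). Ifit3 and Ifit3b changed by 2.22 and 1.70.

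The 3 tested genes of the ISG15 system rose. Isg15, a ubiquitin-like modifier, had 23.3, 18.1 and 55.9 FPKM in J7_MLKL and 8.73, 10.02 and 8.43 in J0_MLKL. Library 3 of J7_MLKL stood far above the others, and without it the log2 fold change was 1.15 in place of 1.82, still called. Usp18, which removes ISG15 and restrains the receptor, had 4.42, 5.12 and 7.36 FPKM in J7_MLKL and 1.68, 1.53 and 1.94 in J0_MLKL, 3.31-fold higher. Herc6, the ligase that attaches ISG15 in the mouse, changed by 1.11 (adjusted p 0.016), a call lost on leaving out any of 4 libraries (J0_MLKL 2 or 3, J7_MLKL 1 or 2, adjusted p 0.0518 to 0.0604).

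Among the remaining members, Rsad2 and Rtp4 rose most. Rsad2, the radical enzyme viperin, had 0.374, 1.08 and 0.157 FPKM in J7_MLKL and 0.00995, 0.0325 and 0.125 in J0_MLKL. These groups do not overlap, but J0_MLKL held only 19 Rsad2 reads in all, and the call (adjusted p 0.0231) was lost without J0_MLKL library 1 or 2 or J7_MLKL library 2 (2.71, 2.85 and 2.18). Without J0_MLKL library 3 the value was 4.49, in place of 3.18, and still called. Rtp4, a receptor chaperone with antiviral function, had 6.60, 5.21 and 13.3 FPKM in J7_MLKL and 1.05, 1.16 and 0.834 in J0_MLKL (8.43-fold, log2 3.02, adjusted p 0.00123). Sp110 and Sp100, of nuclear bodies, rose by 2.22 and 1.08, Xaf1, a regulator of apoptosis inhibitors, by 1.11, and the secreted Lgals3bp by 1.06. The helicase Ddx60 rose by 1.72 (adjusted p 0.0229), a call lost without any 1 of J0_MLKL 1, J0_MLKL 2, J7_MLKL 1 or J7_MLKL 2. Parp14, an ADP-ribosyltransferase, rose by 1.07, and Parp9, with 12.7, 10.8 and 11.4 FPKM in J7_MLKL and 8.04, 7.46 and 7.84 in J0_MLKL, rose by 0.54. Not called were Trim21 (-0.26), Parp12 (0.16), Dtx3l (0.31), the RNA editor Adar (0.57), Znfx1 (0.33), Bst2 (1.29), Ifi44 (0.37), Rnf213 (0.97) and Samd9l (0.12).

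The 2 libraries that stood apart bear on this comparison most. Leaving out single libraries gave 16 to 24 members higher and 0 lower, the 16 without J0_MLKL library 1 or 2. Without both libraries that stood apart, 27 members were higher and 0 lower, with a median of 1.03. Parp12, Dtx3l, Adar, Znfx1, Bst2, Rnf213 and Samd9l were then added to the calls. Isg15 then changed by 1.21 and Bst2 by 0.68. That fit holds 2 libraries per group, and the share of all genes it called is not given here. The count of 27 therefore has no background beside it. Rnf213, for example, kept its log2 fold change (0.97 and 0.98) while its edgeR adjusted p went from 0.127 to 3.63e-10. In library 3 of J7_MLKL, relative to the mean of the other 2 libraries, short genes were high and long genes low, by a median of 0.51 in the shortest 25% and -0.52 in the longest 25% of genes (log2). In library 2 of J0_MLKL these medians were 0.28 and -0.25. Spearman's rho of this deviation with gene length was -0.56 and -0.55 over all genes with at least 20 counts, and -0.74 and -0.70 over the members, which share those libraries. In the other groups' libraries, rho over all genes lay between -0.23 and 0.27. The short members Bst2 (903 bases), Isg15 (756 bases) and Rtp4 (2131 bases) stood high in library 3 of J7_MLKL and the long members Ddx60 (8684 bases) and Rnf213 (16888 bases) stood low.

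**Figure D2:**
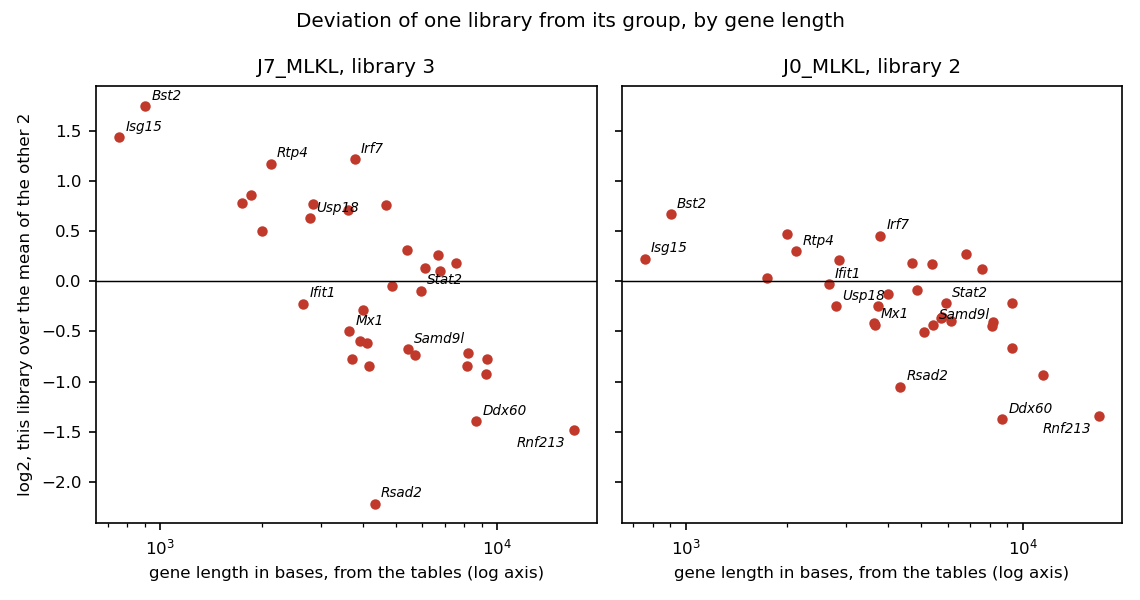
Log2 of each member's FPKM in library 3 of J7_MLKL (left) and library 2 of J0_MLKL (right) over the mean of the other 2 libraries of the group, against gene length in bases on a log axis. Each point is a gene; in both panels Bst2, one of the shortest genes, lies highest and Rnf213 and Ddx60, among the longest, lie near the bottom.

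In the libraries titled J7_RIPK3, most of the genes tested were lower than in those titled J0_RIPK3. Of 33 members tested in J7_RIPK3 against J0_RIPK3, 29 were lower and 4 higher. The comparison called 48.5% of all 11798 genes lower, 49.3% higher and 97.8% in either direction. The median log2 fold change was -2.13 over the members and 0.04 over all genes. Most members (21) had counts in both groups only through the table of this comparison, where they had to differ, and of the other 12, 10 were lower and 2 higher, with a median of -0.98. Marker sums moved as well: 7 of 7 fibroblast markers were lower (229 to 243 FPKM in J7_RIPK3 and 1426 to 1433 in J0_RIPK3) and all 8 adipocyte markers higher. Of the 3 macrophage markers with counts, Lyz2 (-2.75) and Csf1r (-2.01) were lower and Cd68 (2.62) was higher. Their part in the result was not tested.

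Ifit1 had 0.157, 0.131 and 0.199 FPKM in J7_RIPK3 and 2.33, 3.003 and 3.62 in J0_RIPK3, 18.6-fold lower (log2 -4.20 ± 0.24, edgeR adjusted p 3.72e-13). Mx1 had 0, 0 and 0.0414 FPKM in J7_RIPK3 and 0.205, 0.347 and 0.364 in J0_RIPK3. Both genes were near absence in every J7_RIPK3 library, and the 4 Mx1 reads of J7_RIPK3 were all in library 3. Isg15 had 3.47, 2.55 and 2.30 FPKM in J7_RIPK3 and 11.1, 16.4 and 16.7 in J0_RIPK3, 5.39-fold lower. Ifi44, which was as strongly changed as Mx1, had 0.0680, 0.154 and 0.105 FPKM in J7_RIPK3 and 1.43, 1.97 and 2.41 in J0_RIPK3 (log2 -4.22 and -4.24). Without J7_RIPK3 library 3, J7_RIPK3 held no Mx1 read and the fitted value of -7.89 is set by the prior count, while Cmpk2 came to -4.51 in place of -3.66, still called. Groups did not overlap for any of these 4 genes.

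The 2 transcription factors tested fell by about 1 on the log2 scale. Stat2 had 5.58, 5.39 and 6.10 FPKM in J7_RIPK3 and 10.9, 10.9 and 11.5 in J0_RIPK3 (-0.99). Irf9 had 2.83, 2.80 and 3.49 FPKM in J7_RIPK3 and 5.93, 6.07 and 6.67 in J0_RIPK3 (-1.06, edgeR adjusted p 1.16e-10). Every J7_RIPK3 library was below every J0_RIPK3 library in both genes. Of the lower members, Helz2 (-0.36) and Usp18 changed least, and Usp18 had 1.24, 1.31 and 1.20 FPKM in J7_RIPK3 and 1.21, 1.70 and 2.03 in J0_RIPK3. These groups overlap by 1 library, and the call (-0.45, adjusted p 0.0199) was lost without J0_RIPK3 library 3 (adjusted p 0.228).

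A set of 4 members rose in J7_RIPK3. Isg20, an exonuclease that degrades viral RNA, had 8.67, 8.15 and 6.86 FPKM in J7_RIPK3 and 1.38, 1.36 and 1.44 in J0_RIPK3 (log2 2.46 ± 0.12). Znfx1, a helicase of mitochondria that senses viral RNA, had 15.1, 16.04 and 15.6 FPKM in J7_RIPK3 and 6.90, 7.34 and 7.22 in J0_RIPK3 (1.09 ± 0.04). Neither gene's groups overlapped. Lgals3bp had 62.6, 61.7 and 56.1 FPKM in J7_RIPK3 and 27.1, 26.8 and 32.9 in J0_RIPK3. Ifi27, a protein of mitochondria, had 219, 206 and 190.0 FPKM in J7_RIPK3 and 109, 116 and 119 in J0_RIPK3. Lgals3bp and Ifi27 also rose without overlap, by 1.02 and 0.81.

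In control cells, 34 of 37 members tested were lower in J7_CTL than in J0_CTL, 2 were higher and 1 (Ifi27, 0.01, edgeR adjusted p 0.683) was not called. Of all 12055 genes tested, 47.6% were called lower, 48.2% higher and 95.9% in either direction, so a call as such is not particular to the members. Their median log2 fold change was -1.92, against 0.03 over all genes. Of 32 members with counts through another table, 30 were lower and 1 was higher. Lower in both J7_CTL and J7_RIPK3 against their J0 groups were 29 of 33 members tested in both, and 45.7% of all 10650 genes tested in both. Fibroblast markers were lower in 6 of 6 tested (sums of 334 to 342 FPKM in J7_CTL and 1167 to 1232 in J0_CTL), and all 8 adipocyte markers were higher. The 3 macrophage markers with counts summed to 9.003 to 10.04 FPKM in J7_CTL and 55.4 to 59.0 in J0_CTL, with Lyz2 (-3.16) and Csf1r (-1.72) lower and Cd68 (1.42) higher. The part of these markers in the result was not tested.

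Ifit1 had 0.156, 0.107 and 0.0983 FPKM in J7_CTL and 13.99, 11.4 and 14.7 in J0_CTL, a log2 fold change of -6.83 ± 0.16. Mx1 had 0.0227, 0.0223 and 0.0102 FPKM in J7_CTL, where only 5 reads were counted, and 1.32, 1.19 and 1.80 in J0_CTL (-6.25 ± 0.35). Isg15 had 4.001, 3.33 and 3.50 FPKM in J7_CTL and 34.8, 33.5 and 38.5 in J0_CTL, 9.82-fold lower. In these genes the J0_CTL libraries were close to each other and far above every J7_CTL library. Cmpk2, a mitochondrial nucleotide kinase, had 0.00995, 0.0195 and 0 FPKM in J7_CTL and 0.511, 0.552 and 0.630 in J0_CTL. It had 3 reads in J7_CTL in all and was 58.5-fold lower than in J0_CTL by pooled reads (95% counting interval 19.7 to 286), with a fitted log2 value of -5.77, or -6.64 without J7_CTL library 2. Rsad2 had 0.00956, 0 and 0 FPKM in J7_CTL, where 1 read was counted, and 0.0663, 0.0870 and 0.112 in J0_CTL, and it did not pass the filter for a test.

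Roles differed in how far they fell in control cells. The 4 IFIT genes changed by -2.45 to -6.83, the 2 Mx genes by -4.98 and -6.25, and the 3 transcription factors by -1.47 to -1.92. Stat2 had 6.45, 5.53 and 5.50 FPKM in J7_CTL and 17.7, 17.1 and 18.3 in J0_CTL, and Irf9 had 2.51, 2.49 and 2.89 in J7_CTL and 10.1, 9.68 and 9.13 in J0_CTL. Irf7 had 1.60, 1.04 and 1.38 FPKM in J7_CTL and 3.78, 3.09 and 3.94 in J0_CTL. Within the ISG15 system, Isg15 itself changed by -3.34, and its activating enzyme Uba7, Usp18 and Herc6 by -1.15, -1.41 and -1.10. Usp18 had 2.48, 1.95 and 2.21 FPKM in J7_CTL and 5.48, 5.68 and 5.90 in J0_CTL, without overlap.

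Ubiquitin ligases and ADP-ribosyltransferases fell by differing amounts. Trim25, which ubiquitinates the RNA sensor RIG-I, changed by -0.34, Trim21, an intracellular antibody receptor, by -1.71 and Trim30a by -2.87. Parp9 and its partner Dtx3l changed by -0.43 and -0.79, and Parp12 and Parp14 by -1.09 and -2.32. Eif2ak2, the RNA-activated kinase PKR, changed by -0.94, Adar by -1.35 and the helicase Helz2 by -0.82. Strong falls were also seen in Ddx60 (-4.96), Ifi44 (-5.60), Rtp4 (-5.06), Sp100 (-3.93) and Xaf1 (-3.54). Bst2, the membrane tether tetherin that holds budding virus, had 24.4, 26.9 and 26.2 FPKM in J7_CTL and 142, 142 and 141 in J0_CTL, without overlap. Rnf213, a very large ubiquitin ligase, and Samd9l, an antiviral growth suppressor, changed by -1.60 and -2.33, and Sp110 by -2.90, or -3.58 without J7_CTL library 1.

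The exceptions in control cells were Isg20 and Znfx1, which rose as in J7_RIPK3 against J0_RIPK3. Isg20 had 7.64, 8.71 and 7.82 FPKM in J7_CTL and 1.42, 1.83 and 0.998 in J0_CTL (2.44 ± 0.14). Znfx1 had 16.4, 14.8 and 14.5 FPKM in J7_CTL and 9.07, 8.70 and 8.19 in J0_CTL (0.77 ± 0.04). Lgals3bp changed by only -0.10 (adjusted p 0.0183), with 53.3, 55.6 and 57.5 FPKM in J7_CTL and 61.2, 56.6 and 54.6 in J0_CTL. Its groups overlap, and the call was lost without J0_CTL library 1 or J7_CTL library 1 (adjusted p 0.290 and 0.142).

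**Figure D3:**
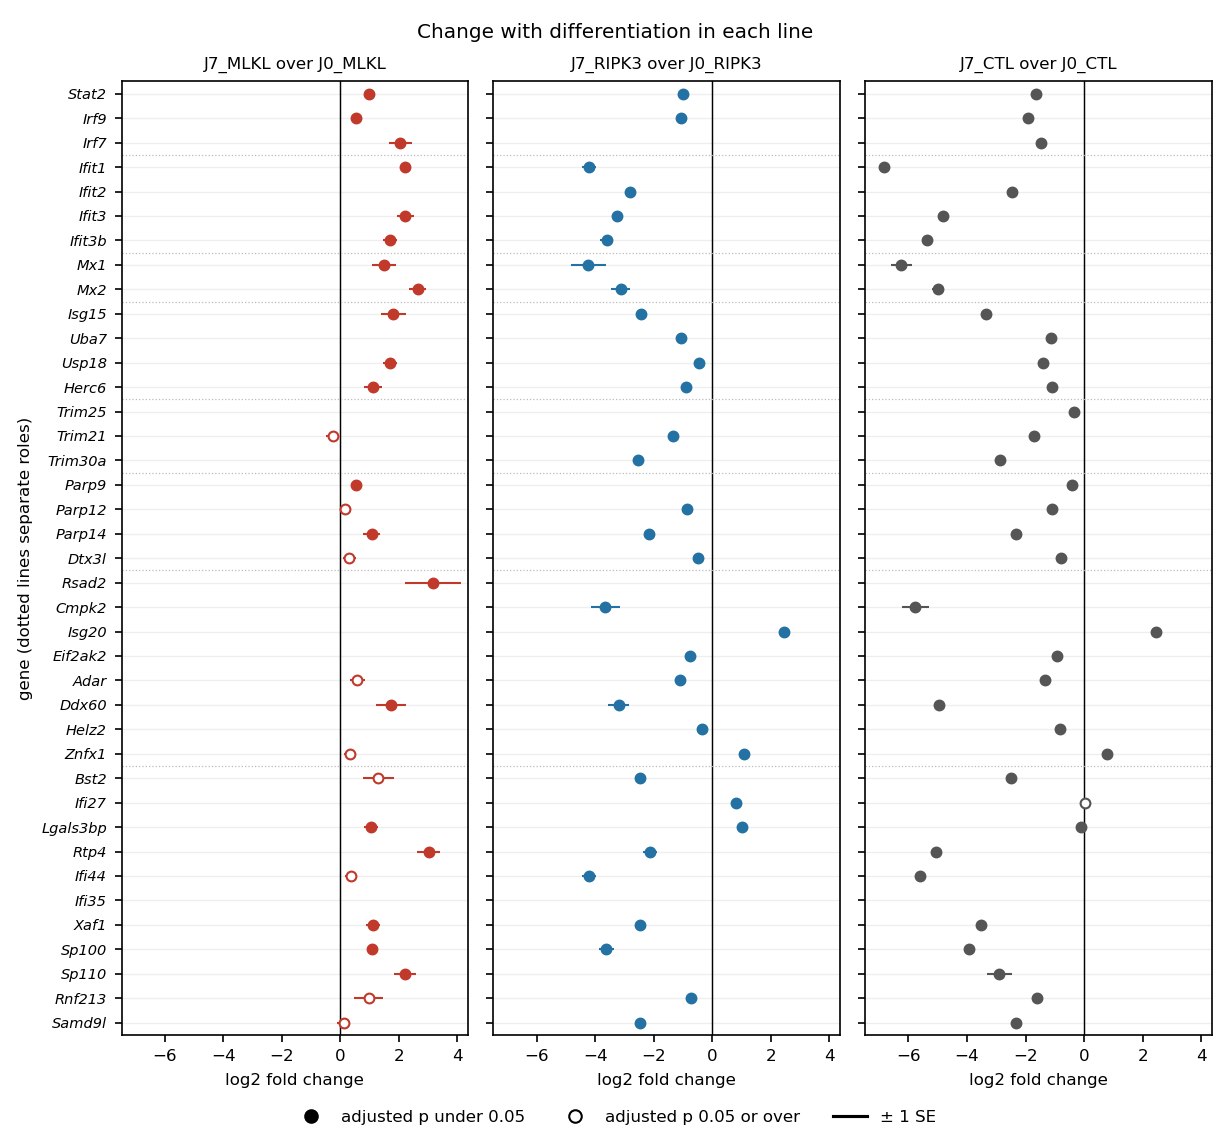
Log2 fold change ± SE of each member for J7_MLKL over J0_MLKL, J7_RIPK3 over J0_RIPK3 and J7_CTL over J0_CTL, from left to right. Filled points mark an edgeR adjusted p under 0.05. Most points of the left panel lie right of 0, and most points of the other panels lie left of it.

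The difference between lines in the change with differentiation was tested directly. The change from J0_MLKL to J7_MLKL minus that in CTL cells was higher in 28 of 29 members tested and lower in 0. At an unadjusted p under 0.05 it was lower in 0 as well, and by DESeq2 in 1 (Znfx1). Each of these members had J0_MLKL counts only because it differed from J0_CTL or from J7_MLKL in the authors' test. Both differences are parts of the change tested here, and the same selection applies to all genes tested. Of all 3033 genes tested, 39% were called higher, 26.3% lower and 65.3% in either direction. The median log2 difference was 3.47 over the members, against 0.30 over all genes, and without the 2 libraries that stood apart it was 3.16 with 28 higher and 1 lower (Znfx1). The largest differences were in Ifit1 (8.99 ± 0.25), Rtp4 (8.03 ± 0.52) and Mx1 (7.69 ± 0.71), and the smallest called ones in Parp9 (0.92), Dtx3l (1.05) and Lgals3bp (1.11). Parp9 had 7.58, 7.38 and 7.65 FPKM in J7_CTL and 9.94, 9.73 and 9.77 in J0_CTL. It was thus lower in J7_CTL than in J0_CTL and higher in J7_MLKL than in J0_MLKL. Dtx3l had 6.78, 6.73 and 4.04 FPKM in J7_MLKL, 4.97, 3.85 and 4.98 in J0_MLKL, 3.82, 3.89 and 3.83 in J7_CTL and 6.77, 6.02 and 6.47 in J0_CTL, where the J7_MLKL and J0_MLKL groups overlap. Lgals3bp had 25.4, 29.2 and 25.1 FPKM and Znfx1 7.18, 5.43 and 7.19 FPKM in J0_MLKL, below their J0_CTL libraries. Znfx1 was not called (-0.48, edgeR adjusted p 0.101). In 19 of 28 members tested in both, the gene was higher in J7_MLKL than J0_MLKL and lower in J7_CTL than J0_CTL, a pattern of 7.14% of all 2842 genes tested in both. These 2 changes do not share libraries. The difference of changes was also higher in all 4 fibroblast markers tested and lower in 4 of 8 adipocyte markers, whose part in the result was not tested. Isg15 and Bst2 (5.11 and 3.74) came to 4.45 and 2.90 without J7_MLKL library 3. Rsad2 (7.58) ranged from 6.59 to 9.55 as single libraries were left out, the last with no read left in J7_CTL, and Sp110 (5.07) came to 5.75 without J7_CTL library 1.

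The same difference was tested for J7_RIPK3 and J0_RIPK3, with the same CTL libraries and the same kind of selection of genes. It was higher in 23 of 33 members and lower in 0 (0 also at an unadjusted p under 0.05 and by DESeq2), where 18.4% of all 11027 genes were called higher, 20.6% lower and 39% in either direction. The median was 0.68 over the members, or 0.41 without J7_RIPK3 library 3, and 0.01 over all genes. Of the called members, Rtp4 (2.95 ± 0.36), Ifit1 (2.64 ± 0.52) and Mx2 (1.86 ± 0.51) differed most, the last no longer called without J7_RIPK3 library 2 (adjusted p 0.0558). Mx2 had 0.0461, 0.151 and 0.0940 FPKM in J7_RIPK3, 0.621, 0.868 and 0.951 in J0_RIPK3, 0.138, 0.0786 and 0.0619 in J7_CTL and 2.93, 2.77 and 2.83 in J0_CTL. Its J7 groups overlap, and its J0_RIPK3 libraries lie below its J0_CTL libraries. The smallest called differences were in Eif2ak2 (0.21), Parp12 (0.24) and Adar (0.28). Eif2ak2 had 11.8, 11.7 and 10.9 FPKM in J7_RIPK3, 18.2, 18.8 and 19.8 in J0_RIPK3, 11.8, 10.96 and 11.2 in J7_CTL and 21.4, 21.2 and 20.6 in J0_CTL. Parp12 had 6.94, 8.18 and 6.76 FPKM in J7_RIPK3, 12.6, 12.4 and 13.7 in J0_RIPK3, 8.35, 7.67 and 7.62 in J7_CTL and 15.7, 15.7 and 17.2 in J0_CTL. Adar had 2.75, 2.54 and 3.05 FPKM in J7_RIPK3, 5.65, 5.70 and 6.07 in J0_RIPK3, 3.05, 2.94 and 3.14 in J7_CTL and 7.66, 7.54 and 7.30 in J0_CTL. In these 3 genes too the J7 groups of both lines overlap and all J0_RIPK3 libraries lie below all J0_CTL libraries. The Parp12 call was lost on leaving out any of 6 libraries (adjusted p 0.0567 to 0.126), and that of Adar without J7_RIPK3 library 3 (0.0642). Calls of Trim21, Ddx60 and Ifi44 likewise rested on single libraries, Trim21 on any of 8 (0.0547 to 0.119), Ddx60 on J7_RIPK3 library 2 (0.0769) and Ifi44 on J7_RIPK3 library 2 or J7_CTL library 3 (0.0916 and 0.0520).

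**Figure D4:**
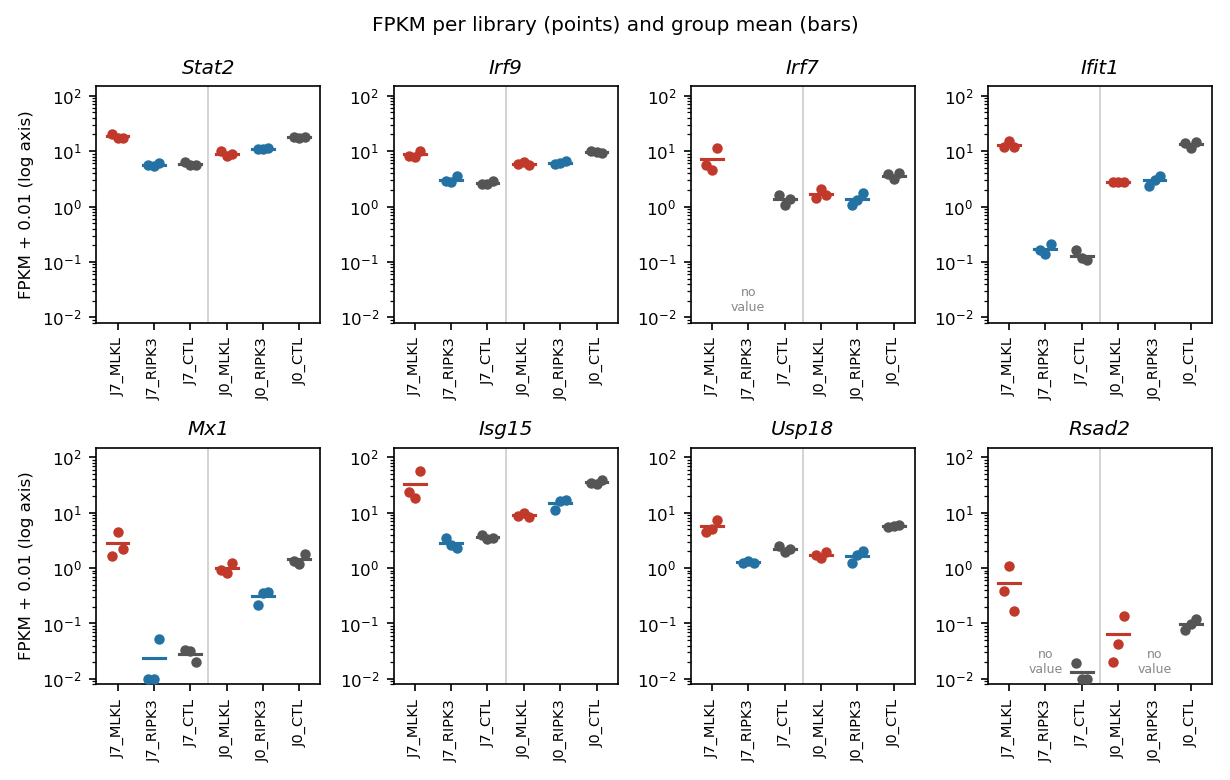
FPKM + 0.01 on a log axis for 8 genes in each library (points) with the group mean (bars), from J7_MLKL to J0_CTL. J7_MLKL points lie above J7_RIPK3 and J7_CTL points in every panel where the group has a value, most widely in Ifit1 and Mx1.

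In undifferentiated cells, both knockout-labelled lines had less of these transcripts than control cells. In J0_MLKL against J0_CTL, 30 of 32 members were lower, 0 were higher (0 also at an unadjusted p under 0.05 and by DESeq2) and Mx1 and Rsad2 were not called. Of all 3824 genes tested, 43.2% were lower, 40.4% higher and 83.6% called in either direction. The median log2 fold change was -0.87 over the members and -0.04 over all genes. Of 19 members with counts through another table, 17 were lower. Without J0_MLKL library 2, 30 were lower and the median was -0.81.

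In J0_RIPK3 against J0_CTL, 36 of 38 members were lower, 0 were higher (0 also at an unadjusted p under 0.05 and by DESeq2), and Ifit2 and Isg20 were not called. Of all 11044 genes tested, 27.4% were lower, 28.3% higher and 55.8% called in either direction. The median was -0.89 over the members and -0.01 over all genes, and 29 of 31 members with counts through another table were lower. Both knockout comparisons share the J0_CTL libraries.

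Transcripts of the transcription factors stood at 9.05 ± 1.04 FPKM in J0_MLKL, 11.1 ± 0.312 in J0_RIPK3 and 17.7 ± 0.604 in J0_CTL for Stat2 (mean ± SD, n = 3). For Irf7 they stood at 1.71 ± 0.343 FPKM in J0_MLKL, 1.38 ± 0.359 in J0_RIPK3 and 3.61 ± 0.455 in J0_CTL, with every knockout library below every control library (J0_RIPK3 libraries at 1.05, 1.32 and 1.76). Against CTL, Stat2 changed by -0.94 in J0_MLKL and -0.69 in J0_RIPK3, and Irf7 by -1.04 in J0_MLKL and -1.37 in J0_RIPK3. Irf9 changed by -0.67 in J0_MLKL and -0.65 in J0_RIPK3. Ifit1 was 4.82-fold lower in J0_MLKL and 4.35-fold lower in J0_RIPK3. Isg15 was 3.89-fold lower in J0_MLKL and 2.37-fold lower in J0_RIPK3. Usp18 changed almost alike, by -1.70 ± 0.12 in J0_MLKL and -1.78 ± 0.12 in J0_RIPK3.

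Other members with large falls at J0 were Sp110, Ddx60 and Rtp4. Sp110 had 0.0318, 0.0260 and 0.0114 FPKM in J0_MLKL, 0.00581, 0.00643 and 0.0240 in J0_RIPK3 and 0.199, 0.142 and 0.179 in J0_CTL, from 12 and 8 reads in the 2 knockout groups. Ddx60 had 0.263, 0.105 and 0.285 FPKM in J0_MLKL, 0.236, 0.176 and 0.327 in J0_RIPK3 and 1.35, 1.27 and 1.28 in J0_CTL. Rtp4 had 1.05, 1.16 and 0.834 FPKM in J0_MLKL, 1.74, 1.62 and 2.46 in J0_RIPK3 and 6.38, 5.84 and 6.10 in J0_CTL. No knockout library of these 3 genes reached the lowest control library. The log2 fold changes in J0_MLKL and J0_RIPK3 were -2.86 and -3.62 for Sp110, -2.56 and -2.36 for Ddx60, and -2.56 and -1.64 for Rtp4. Without J0_RIPK3 library 3 the Sp110 value in RIPK3-/- cells was -4.71.

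The smallest called falls in J0_MLKL were those of Parp9 (-0.30), Znfx1 (-0.36) and Trim21 (-0.36), which had 4.03, 3.36 and 3.93 FPKM in J0_MLKL and 5.05, 5.10 and 4.68 in J0_CTL, without overlap. The calls of Znfx1, Parp14 and Rnf213 in J0_MLKL were lost without single J0_CTL libraries (adjusted p 0.0504 to 0.0883). In J0_RIPK3 the smallest were Eif2ak2 (-0.18), Trim30a (-0.21) and Ifi27 (-0.22). Trim30a, a mouse regulator of inflammatory signalling, had 16.9, 17.4 and 18.7 FPKM in J0_RIPK3 and 20.2, 20.04 and 20.2 in J0_CTL, and Ifi27 had 136, 132 and 128 FPKM in J0_CTL, all above its J0_RIPK3 libraries. Ifi35, a protein of cytoplasmic complexes that was tested in this comparison alone, had 9.83, 9.03 and 9.01 FPKM in J0_RIPK3 and 13.7, 12.9 and 12.97 in J0_CTL (-0.53). Members that were not called had 6.15, 6.46 and 6.22 FPKM in J0_RIPK3 and 6.37, 7.22 and 6.45 in J0_CTL for Ifit2, and 1.38, 1.36 and 1.44 FPKM in J0_RIPK3 and 1.42, 1.83 and 0.998 in J0_CTL for Isg20. In J0_MLKL, Mx1 (-0.52, edgeR adjusted p 0.0579) and Rsad2 (-0.57, 0.439) were not called, but both were without J0_MLKL library 3 (-0.73 and -1.88). Of 6 macrophage markers, Lyz2 was lower in J0_MLKL (-1.56) and in J0_RIPK3 (-1.08), with 15.5, 21.8 and 18.7 FPKM in J0_MLKL, 29.2, 25.7 and 25.9 in J0_RIPK3 and 57.8, 56.1 and 54.4 in J0_CTL. In J0_RIPK3, Csf1r was higher (0.93) and Cd68 was not called (-0.50, edgeR adjusted p 0.12). Ptprc, Adgre1 and Itgam had no listed count in any group, which does not show that they were absent. The part of the macrophage markers in the result was not tested.

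The undifferentiated knockout lines differed from each other in both directions. In J0_MLKL against J0_RIPK3, 6 of 30 members were higher and 6 lower, with 33.1% of all 3455 genes called higher, 33.4% lower and 66.5% in either direction, and a median of -0.05 over the members against 0.01 over all genes. Mx1 had 0.899, 0.792 and 1.24 FPKM in J0_MLKL and 0.205, 0.347 and 0.364 in J0_RIPK3, higher by 1.70 ± 0.27 without overlap (edgeR adjusted p 0.000966). Sp100 had 0.964, 0.965 and 0.813 FPKM in J0_MLKL and 0.521, 0.531 and 0.763 in J0_RIPK3, and Parp14 had 3.28, 1.99 and 3.001 in J0_MLKL and 1.69, 1.79 and 2.13 in J0_RIPK3. Sp100 (0.62) did not overlap and Parp14 (0.59) did, both calls being lost without single libraries (adjusted p 0.0603 to 0.0944). At the other end, Ifi44 had 1.22, 0.833 and 0.977 FPKM in J0_MLKL and 1.43, 1.97 and 2.41 in J0_RIPK3 (-0.91), Rtp4 changed by -0.91 and Isg15 by -0.66. Xaf1 was also higher, with 2.62, 2.98 and 2.63 FPKM in J0_MLKL and 1.78, 1.86 and 2.19 in J0_RIPK3 (0.54), and so was Dtx3l, with 3.54, 3.78 and 3.95 FPKM in J0_RIPK3 (0.33). Parp9 was higher too, with 5.63, 6.30 and 6.78 FPKM in J0_RIPK3 (0.36). Calls of Stat2 and Dtx3l in this contrast were lost without any of 4 and 5 single libraries.

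In differentiated cells, the libraries titled J7_MLKL had far more of these transcripts than control cells. In J7_MLKL against J7_CTL, 31 of 34 members were higher, 2 lower (Isg20 and Znfx1) and 1 (Lgals3bp) was not called. Of all 7263 genes tested, 48.5% were higher, 46.4% lower and 94.9% called in either direction, and the median log2 fold change was 2.42 over the members and 0.17 over all genes. The 15 members that had counts only through the table of this comparison had to differ there, and of the other 19, 18 were higher and 0 lower, with a median of 3.66. Without J7_MLKL library 3, 31 were higher and 3 lower, with a median of 2.24. Adipocyte marker sums, given above, were lower in every J7_MLKL library than in any J7_CTL library, and fibroblast marker sums were higher, 1042 to 1227 FPKM over 6 genes in J7_MLKL and 334 to 342 over 7 in J7_CTL. Csf1r, the only macrophage marker with counts in J7_MLKL, was higher (1.53) but stood at only 0.127 to 0.170 FPKM in J7_MLKL. It was not called in J7_MLKL against J7_RIPK3 (0.97). The part of all these markers in the result was not tested.

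Mx1, Rsad2, Cmpk2 and Ifit1 differed most. Mx1 was 149-fold higher in J7_MLKL by pooled reads, from 5 reads in J7_CTL (log2 7.26 ± 0.63, edgeR adjusted p 9.33e-05). Rsad2 was 165-fold higher by pooled reads, from 1 read in J7_CTL (95% counting interval 29.3 to 6573), and Cmpk2 137-fold higher from 3 reads (46.7 to 669). Their fitted log2 values, 7.07 and 7.06, ranged from 6.08 to 8.89 and from 6.46 to 7.89 as single libraries were left out, all called, the Rsad2 value of 8.89 with no read left in J7_CTL. Ifit1 was 108-fold, Ifit3b 75.3-fold, Ifit3 62.2-fold, Mx2 59.99-fold and Rtp4 46.1-fold higher. Cmpk2 had 1.20, 1.97 and 0.881 FPKM in J7_MLKL. In all of these, the lowest J7_MLKL library was far above the highest J7_CTL library. The transcription factors differed by 1.76 ± 0.11 for Stat2, 1.83 ± 0.14 for Irf9 and 2.53 ± 0.40 for Irf7. Isg15 and Bst2 differed by 3.27 and 3.17, values that were 2.59 and 2.30 without J7_MLKL library 3. Sp110 differed by 2.31, or 2.96 without J7_CTL library 1. Dtx3l (0.71) was no longer called without J7_CTL library 1 or 3 (adjusted p 0.0512 and 0.0511). Usp18 differed by 1.45, and the smallest called rise was that of Parp12, with 12.1, 11.5 and 9.71 FPKM in J7_MLKL, above all J7_CTL libraries (0.60 ± 0.11, adjusted p 0.00253).

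Isg20 and Znfx1 went the other way. Isg20 had 3.03, 3.62 and 6.02 FPKM in J7_MLKL and 7.64, 8.71 and 7.82 in J7_CTL (-0.82, edgeR adjusted p 0.0211), a call lost without J7_MLKL library 1 or 2 or J7_CTL library 2 (0.0549 to 0.0681). Znfx1 had 9.61, 9.97 and 5.97 FPKM in J7_MLKL and 16.4, 14.8 and 14.5 in J7_CTL (-0.74, adjusted p 0.0107). Neither gene's groups overlapped. Lgals3bp had 50.6, 41.0 and 77.8 FPKM in J7_MLKL and 53.3, 55.6 and 57.5 in J7_CTL, with overlapping groups, and was called lower (-0.20) without J7_MLKL library 3.

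In J7_RIPK3 against J7_CTL, 4 of 29 members were higher and 10 lower, with 29.6% of all 11170 genes called higher, 29.5% lower and 59.1% in either direction. The median was -0.02 over the members and 0.00 over all genes. Of 26 members with counts through another table, 2 were higher and 9 lower. Ifit1 had 0.157, 0.131 and 0.199 FPKM in J7_RIPK3 and 0.156, 0.107 and 0.0983 in J7_CTL. Stat2 had 5.58, 5.39 and 6.10 FPKM in J7_RIPK3 and 6.45, 5.53 and 5.50 in J7_CTL. Both genes' groups overlap, and neither was called (0.47 and -0.01, edgeR adjusted p 0.371 and 0.876). Sp100 fell most, with 0.0441, 0.0590 and 0.04997 FPKM in J7_RIPK3 and 0.137, 0.156 and 0.207 in J7_CTL (-1.70 ± 0.33). Parp14 had 0.448, 0.410 and 0.422 FPKM in J7_RIPK3 and 0.891, 0.816 and 0.733 in J7_CTL, without overlap. Parp14 fell by 0.91 on the log2 scale, Usp18 by 0.81 and Bst2 by 0.80. Rtp4 rose, with 0.528, 0.442 and 0.408 FPKM in J7_RIPK3 and 0.214, 0.229 and 0.122 in J7_CTL (1.30 ± 0.35), as did Ifi27 (0.59, with 138, 135 and 139 FPKM in J7_CTL), Irf9 (0.23) and Lgals3bp (0.13). The last 2 calls were lost without single libraries, Irf9 without J7_RIPK3 library 3 or J7_CTL library 1 or 2 (adjusted p 0.143 to 0.394) and Lgals3bp without J7_CTL library 1 (0.0709). Those of Ifit2 and Rnf213 were lost in the same way (0.0833 to 0.198 and 0.0863 to 0.0944).

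The direct contrast of J7_MLKL with J7_RIPK3 gave 27 of 30 members higher and 2 lower, where 44.8% of all 6591 genes were called higher, 42% lower and 86.8% in either direction. All 30 had counts through tables of other comparisons, where they had to differ from J7_CTL or from the J0 group of the same title. These members were therefore also selected on the libraries compared here. The median log2 fold change was 2.81 over the members and -0.03 over all genes. Mx1 (7.54 ± 0.81, with 4 reads in J7_RIPK3), Ifit1 (6.47 ± 0.23) and Cmpk2 (6.13 ± 0.54, with 0.01001, 0.0119 and 0.0363 FPKM in J7_RIPK3) differed most, and of the called rises Parp12 differed least (0.78). Isg20 and Znfx1 were lower (-0.72 and -0.70), the Isg20 call being lost without any of 5 single libraries (edgeR adjusted p 0.0598 to 0.122), and Lgals3bp was not called (0.09). Without J7_MLKL library 3, 27 were higher and 3 lower, and Isg15 and Bst2 (3.73 and 4.06) came to 3.05 and 3.19. Without J7_RIPK3 library 3, Cmpk2 came to 6.95, still called, and the fitted Mx1 value of 10.98 had no read behind it in J7_RIPK3.

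**Figure D5:**
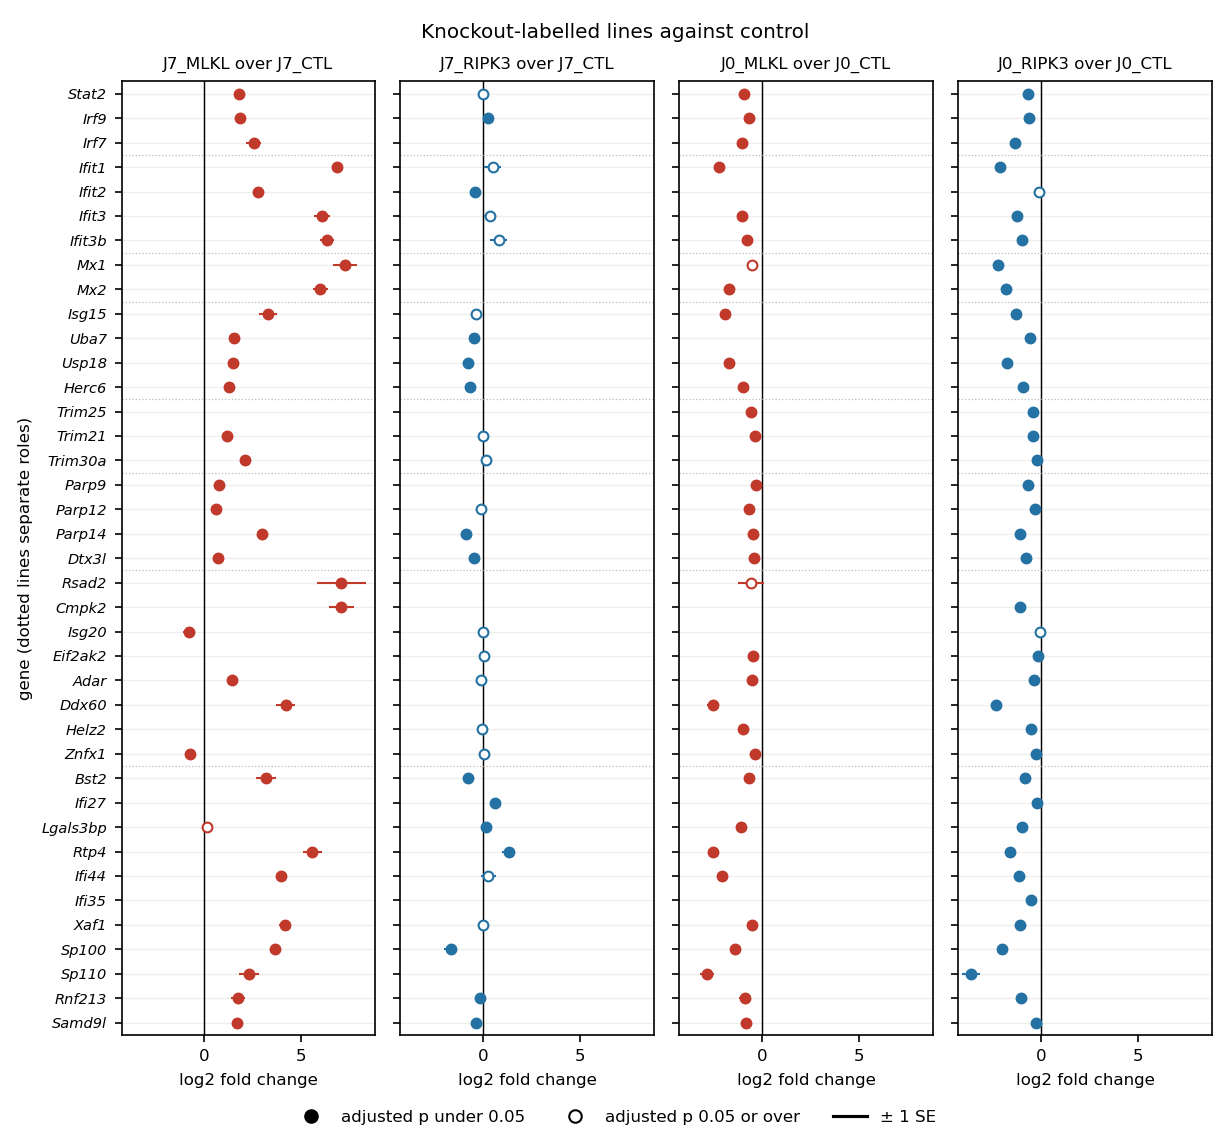
Log2 fold change ± SE of each member in J7_MLKL and J7_RIPK3 over J7_CTL and in J0_MLKL and J0_RIPK3 over J0_CTL, from left to right, with filled points where the edgeR adjusted p was under 0.05. Points lie mostly right of 0 in J7_MLKL, around 0 in J7_RIPK3 and left of 0 in both J0 panels.

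Other genes of the interferon pathway were read from lists that hold no member. Receptor genes did not follow the members at J0: in J0_MLKL against J0_CTL all 4 of the 12 listed ligand and receptor genes that were tested were higher, among them Ifnar1 (0.43) and Ifnar2 (0.63), the 2 chains of the type I receptor. In J7_MLKL against J7_CTL, Ifnar1 (0.60) and Ifnar2 (0.97) were also higher, and in J7_CTL against J0_CTL they were lower (-0.31 and -0.64). The ligand genes on the list (Ifnb1, Ifna1, Ifna2, Ifna4, Ifnk and Ifng) had no listed count, and their levels were not analysed here. Socs1, a feedback inhibitor of the receptor kinases, was higher in J7_MLKL than in J7_CTL (2.73) and lower in J7_CTL than in J0_CTL (-3.13).

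Among other regulators of the JAK-STAT and IRF kind, 5 of 8 tested were higher and 2 lower in J7_MLKL against J7_CTL, 3 of 8 were higher and 5 lower in J0_MLKL, and 6 of 15 were higher and 9 lower in J7_CTL against J0_CTL.

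Of nucleic acid sensing genes, 5 of 6 tested were higher and 0 lower in J7_MLKL against J0_MLKL, 7 of 9 tested were higher and 2 lower in J7_MLKL against J7_CTL, and 9 of 10 were lower in J7_CTL against J0_CTL. The RNA sensor gene Ddx58, which encodes RIG-I, had 9.71, 8.94 and 7.57 FPKM in J7_MLKL and 3.02, 2.78 and 3.05 in J7_CTL (1.67), without overlap. Zbp1, the nucleic acid sensor that engages RIPK3, had 0.898, 0.770 and 1.29 FPKM in J7_MLKL and 0.106, 0.0920 and 0.0740 in J7_CTL (3.53). The 2 lower genes were Ifih1 and Mavs. Ifih1, which encodes the RNA sensor MDA5, was at 0.317, 0.384 and 0.232 FPKM in J7_MLKL and 0.619, 0.736 and 0.804 in J7_CTL (-1.11), again without overlap. Mavs, the mitochondrial adaptor of both RNA sensors, had 13.8, 14.5 and 11.3 FPKM in J7_MLKL and 34.7, 33.9 and 33.1 in J7_CTL (-1.26), also without overlap. Ifih1 was also low in both knockout lines at J0, with 0.0581, 0.0345 and 0.0426 FPKM in J0_MLKL, 0.111, 0.171 and 0.162 in J0_RIPK3 and 0.954, 0.916 and 0.826 in J0_CTL.

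Of GTPases that respond mainly to interferon gamma, 6 of 7 tested were higher in J7_MLKL against J0_MLKL and all 10 in J7_MLKL against J7_CTL, all 8 were lower in J0_MLKL and 10 of 11 in J0_RIPK3 against J0_CTL, and all 11 were lower in J7_CTL against J0_CTL. Gbp3 had 5.30, 5.28 and 6.24 FPKM in J7_MLKL and 0.787, 0.908 and 0.720 in J7_CTL. Of 10 genes for MHC class I presentation, 7 of 9 tested were lower in J0_MLKL and 8 of 10 in J0_RIPK3 against J0_CTL, and all 10 were lower in J7_RIPK3 against J7_CTL, while 2 of 6 were higher and 1 lower in J7_MLKL against J7_CTL, and 5 of 6 were higher in J7_MLKL against J0_MLKL. The MHC class I genes did not follow the members in J7_CTL against J0_CTL, where 5 of 10 were higher and 4 lower. Nor did they in J7_RIPK3 against J0_RIPK3, where 5 of 10 were higher and 5 lower. The percentages of all genes called in these comparisons are those given above.

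Members with the paired GAAA motif in the promoter window had larger median changes in some comparisons than members without it. In J7_MLKL against J7_CTL the median log2 fold change was 3.73 over 10 members with the motif (1.15 to 7.07) and 1.71 over 18 without it (-0.82 to 7.06). In J7_CTL against J0_CTL it was -3.11 over 10 with the motif (-6.83 to -0.94) and -1.41 over 20 without it (-5.77 to 2.44). The difference of the changes, MLKL minus CTL, had a median of 6.64 over 9 members with the motif and 2.40 over 14 without it. In J7_RIPK3 against J7_CTL the median was 0.03 over 9 with the motif (0 higher and 1 lower) and -0.11 over 16 without it (2 higher and 7 lower). At J0 the medians were -0.87 with and -0.87 without the motif in J0_MLKL, and -0.92 with and -0.65 without it in J0_RIPK3, against J0_CTL. The ranges printed overlap, Ifit3 and Ifit3b share nearly 1 sequence, and these medians are descriptions with no test. Members without a matched window (Usp18, Rtp4, Parp9, Parp14, Ifi27, Mx2 and Mx1) are in neither set. In the MLKL difference these include Rtp4 and Mx1, among the largest values, and Parp9, the smallest called one. Isg20, Znfx1 and Lgals3bp hold no match in the windows used.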

How the data were processed

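RNA was read from 18 libraries, 3 in each of 6 groups named by sample title. Per the submitters' processing notes, the tools were FastQC 0.11.9, HISAT2, featureCounts 1.5.0-p3 and DESeq2 on mouse build mm10. The 7 deposited tables give raw read counts per gene and library, which were tested. The authors' normalised count (a signal scaled by a size factor per library) gave their size factors, used in an alternative. The authors' log2 fold change, p-value and adjusted p-value were read only to understand the tables. The authors' FPKM gives the levels. Other deposited columns give the coordinates and gene length. A table lists a gene when the authors' adjusted p was under 0.05 in that comparison, so the genes are preselected, and a group's counts can be missing for a gene. Members with counts through another table were likewise listed for differing there, in comparisons that share libraries with the one tested. Counts were joined by gene identifier, and 0 of 88950 repeated counts differed between tables. No column of the tables belonged to a sample outside the 18.

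Library totals were recovered from counts, FPKM and lengths. Each comparison used genes with counts in all its groups, a low-count filter (filterByExpr), TMM factors and the quasi-likelihood test of edgeR 4.0.16 (R 4.3.3), with Benjamini-Hochberg adjustment over all genes tested. SE was derived from edgeR's F statistic. Pooled folds are ratios of summed reads over summed totals. Where a group held 1 to 3 reads, the ratio has an exact 95% interval that covers counting error only. DESeq2 1.42.0 was an alternative. The code was tested on simulated data.

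The members, lists and tests were chosen with earlier results of these data known. Values in every library are given for Stat2, Irf9, Irf7, Ifit1, Mx1, Isg15, Usp18 and Rsad2. The rule for other named members takes, in each comparison, the 3 called with the highest and the 3 with the lowest log2 fold change and every member called against the majority. Lists of pathway genes and of adipocyte, fibroblast, macrophage, endothelial, B and T cell markers were read beside them. Whether replicate numbers pair libraries is not given in the sources used here. In no comparison was every correlation of same-numbered libraries over 0.1, which cannot exclude pairing.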

Additional observations from a re-analysis of the deposited data

Results flagged for a closer look

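The changes with differentiation differed between cell lines by the interaction term of edgeR's model. In MLKL-/- cells against CTL cells the difference was positive and called in 28 of the 29 members tested, where 39% of all 3033 genes were called higher. On the log2 scale it was 2.59 for Stat2, 2.40 for Irf9, 3.47 for Irf7, 8.99 for Ifit1, 7.69 for Mx1, 5.11 for Isg15, 3.04 for Usp18 and 7.58 for Rsad2. In RIPK3-/- cells against CTL cells it was positive and called in 23 of 33 members, where 18.4% of all 11027 genes were called higher. It was 0.68 for Stat2, 0.88 for Irf9, 2.64 for Ifit1, 0.92 for Isg15 and 0.97 for Usp18. The members' median log2 fold change was -0.02 in J7_RIPK3 against J7_CTL and -0.89 in J0_RIPK3 against J0_CTL. Both interaction tests share the CTL libraries. They take the J7 and J0 libraries of a title as 1 line, whereas the genotype labels of the J7 knockout samples name the other knockout.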

How the results depend on the processing

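The members named by the rule in each comparison had 1748 single-gene values under the alternatives. Of these, 1665 kept their direction and their side of the threshold, 66 were no longer called, 7 became called and 10 changed sign. Other members are not in this tally, and some of them gained calls as well, such as Adar and Rnf213 in J7_MLKL against J0_MLKL without J7_MLKL library 3. With 1 fit over all 6 groups, which tests 25 members, 1 member was higher in J7_CTL and 2 in J7_RIPK3 against J0, 20 were lower in J0_RIPK3 against J0_CTL, 1 was lower in J7_MLKL and 1 higher and 5 lower in J7_RIPK3 against J7_CTL, and 1 was lower in J7_MLKL against J7_RIPK3. In that fit the difference of changes was higher in 11 members for RIPK3-/- cells and lower in 1 for MLKL-/- cells, and Lgals3bp in J7_CTL against J0_CTL turned to 0.0937. Asking also for an absolute log2 fold change over 1 left 1 member higher in J7_CTL against J0_CTL, 14 lower in J0_MLKL and 17 in J0_RIPK3 against J0_CTL, 0 lower in J7_MLKL and 1 higher and 1 lower in J7_RIPK3 against J7_CTL, 1 higher and 0 lower in J0_MLKL against J0_RIPK3, 0 lower in J7_MLKL against J7_RIPK3, and 9 with a higher difference for RIPK3-/- cells. Among members that entered through another table, 1 was higher in J7_CTL, and 2 were higher and 10 lower in J7_RIPK3, against J0. Likewise 17 were lower in J0_MLKL against J0_CTL, 18 were higher and 0 lower in J7_MLKL, and 2 were higher in J7_RIPK3, against J7_CTL. DESeq2 size factors and DESeq2's Wald test each gave 1 member with a lower difference for MLKL-/- cells, as did leaving out J0_MLKL library 2 and J7_MLKL library 3 together. The fit over all 6 groups and the set that entered through another table hold fewer members by construction. The cause of the shifts was not tested in any setting.

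Leaving out single libraries gave 1 to 3 members lower in J7_MLKL and 2 to 4 higher in J7_RIPK3 against J7_CTL, 3 to 7 higher in J0_MLKL against J0_RIPK3, 1 to 3 lower in J7_MLKL against J7_RIPK3, and 0 to 1 with a lower difference for MLKL-/- and for RIPK3-/- cells. Values that changed sign were Stat2 in J7_RIPK3 against J7_CTL (0.0104, 0.0262 and 0.0608, in a range of -0.0818 to 0.0608), Irf9 (0.02 and 0.004, range -0.0944 to 0.02), Usp18 (-0.0054 and -0.1012, range -0.1012 to 0.2582) and Ifit1 (0.0775, range -0.2363 to 0.0775) in J0_MLKL against J0_RIPK3, and the RIPK3 difference of Mx1 (-1.6705, with no read left in J7_RIPK3, range -1.6705 to 2.589). These are values of the members named by the rule. Of them, only Lgals3bp in J7_CTL against J0_CTL was called by edgeR in the reported fit, and none was called after the change. Outside that rule, Lgals3bp changed sign without J7_MLKL library 3 and was then called lower. It went from 0.13 to -0.20 in J7_MLKL against J7_CTL and from 0.09 to -0.24 in J7_MLKL against J7_RIPK3. Where a group kept its other 2 libraries, the fit pooled the spread over groups.

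With the replicate number as a block, 1 member was lower in J7_MLKL against J7_RIPK3 and 17 were higher in J7_MLKL against J0_MLKL, where all genes gave 1734 calls in place of 2051. The block gave 31 members lower in J0_MLKL against J0_CTL and 6 higher and 8 lower in J0_MLKL against J0_RIPK3, and it left the other counts as they were. Same-numbered libraries correlated at 0.54, -0.74 and -0.65 between J7_MLKL and J0_MLKL. The library that stood apart has a different number in each group, so these values cannot show whether the numbers pair libraries.

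Another scaling moved the median of all genes by over 0.1 (log2) in a few comparisons. It moved by -0.17 in J7_MLKL against J7_RIPK3 with library totals, and by -0.31 with DESeq2 size factors in the MLKL difference, against member medians of 2.81 and 3.47. Values that rest on few reads (Mx1, Rsad2, Cmpk2 and Sp110 in J7_CTL, J7_RIPK3 or J0 knockouts) are limited by depth. Genes without a listed count were not analysed, and the authors' selection favours genes that differ.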
